A study of Homo sapiens with 19 samples.

Results

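Brown and beige adipocytes burn fuel to make heat. UCP1 in their mitochondria lets protons return across the inner membrane without making ATP, and noradrenaline switches this on through beta-adrenergic receptors, cAMP and protein kinase A. Which precursors become such cells is set by transcription factors and their partners, among them PRDM16, EBF2, PPARG, the C/EBP proteins and the coactivator PPARGC1A. Described here are 10 genes of this network, chosen by name for their known roles: PRDM16, PPARGC1A, EBF2, PPARG, CEBPA and CEBPB as regulators, UCP1, CIDEA and DIO2 as genes of the thermogenic program, and CITED1 as a marker of beige cells. They are 10 of 20503 genes that the arrays could be matched to, and 13 probes measured them.

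The culture was of KhES-3, an established line of human embryonic stem cells (hESCs). The cells were moved to a low-attachment dish in a serum-free medium for differentiation into brown adipocytes (BAs), with IGF-II, BMP4, VEGFA, KITLG, FLT3LG and IL-6, and RNA was taken once at each of 19 hours between 3 and 72 h. No sample was taken before induction, no uninduced culture was run beside them and no time point was repeated, so every comparison below is between hours of 1 course, and the scatter around a trend is the only measure of error. GEO's labels say that the hESCs had been grown on irradiated mouse embryonic fibroblasts, whereas the study's methods describe a culture without feeder cells. All cells carried the same genotype and received the same medium. The arrays lay on 3 slides, with 3 to 12 h on the first (6 arrays), 14 to 42 h on the second (8 arrays) and 48 to 72 h on the third (5 arrays), so slide and time cannot be fully told apart. The third slide was also scanned on a later day.

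Signals below are one-colour Agilent intensities brought to a common 75th percentile of 871 on every array. The 75th percentile itself ran from 655 to 1003 before that. Whether a spot was well above background is the scanner software's own call. Between 49.5% and 64.7% of probes passed it on an array, and the arrays at 14, 16 and 72 h passed the fewest (49.5%, 52.0% and 53.8%). The lowest signal that passed was 73.5 at 14 h, 53.7 at 16 h and 52.4 at 72 h, against 25.6 on the median array. A gene with a signal of 40 could therefore be called on most arrays but not on those 3. In RNA from a whole culture, fewer cells that use a gene and less RNA per cell cannot be told apart.

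The labelled cell type was borne out by its markers. All 10 hESC markers examined were well above background on 19 of 19 arrays, with POU5F1, a core pluripotency factor, the brightest. Their summed signal was 870845 at 3 h, 884413 at its highest (8 h) and 626458 at 72 h. Genes of the fat cell were detected in part. Of the 16 adipocyte genes with a probe, 8 were well above background on all 19 arrays and 2 on none. FABP4, the fatty acid carrier of adipocytes, and the hormone gene ADIPOQ were not well above background on any array, and PLIN1, which coats the lipid droplet, was on 1. The list had a summed signal between 26702 and 38371. Its brightest gene by the mean over all 19 arrays was AGPAT2, an enzyme of phospholipid and triglyceride synthesis that many cells use. The regulators were thus measured in cells that still carried the hESC markers and in which FABP4 and ADIPOQ were not detected.

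Detection varied widely among the 10 genes, as the panels of signal by hour show. PPARGC1A, CEBPA and CEBPB were well above background on all 19 arrays. DIO2 was on 18, PRDM16 on 13, UCP1 and CIDEA on 8 each, PPARG on 7 and CITED1 on 6. EBF2 was on 0, and it was not tested. For each of the other 9 genes the slope of log2 signal on hours was tested with limma among 32111 probes, all of those well above background on at least 5 arrays. The fit used the reading of every array, also those not well above background. At an adjusted p (Benjamini-Hochberg) under 0.05, 2 of the 9 genes rose (PPARG and CEBPA), 2 fell (PPARGC1A and CITED1) and 5 were not called. Over all probes tested, 53.4% were called in either direction, 30.9% rising and 22.4% falling, so the share of these genes that was called was no larger than that of probes at large. PPARG and CITED1 passed the detection filter through the hours at which they read high alone, which favours a call in that direction, so their slopes over the whole course are descriptions and support nothing. A second test asked for any dependence on time, through the 3 terms of a cubic curve. It called 5 of the 9 (PPARGC1A, PPARG, CEBPA, CEBPB and CITED1), against 76.8% of all probes, and with the spike-in RNA as the scale all 9, against 81.1%. The detection filter favours these calls too for PPARG and CITED1, so for those genes they are descriptions and support nothing. The same holds for UCP1 with the spike-in RNA, since it passed the filter through arrays up to 42 h alone.

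**Figure D1:**
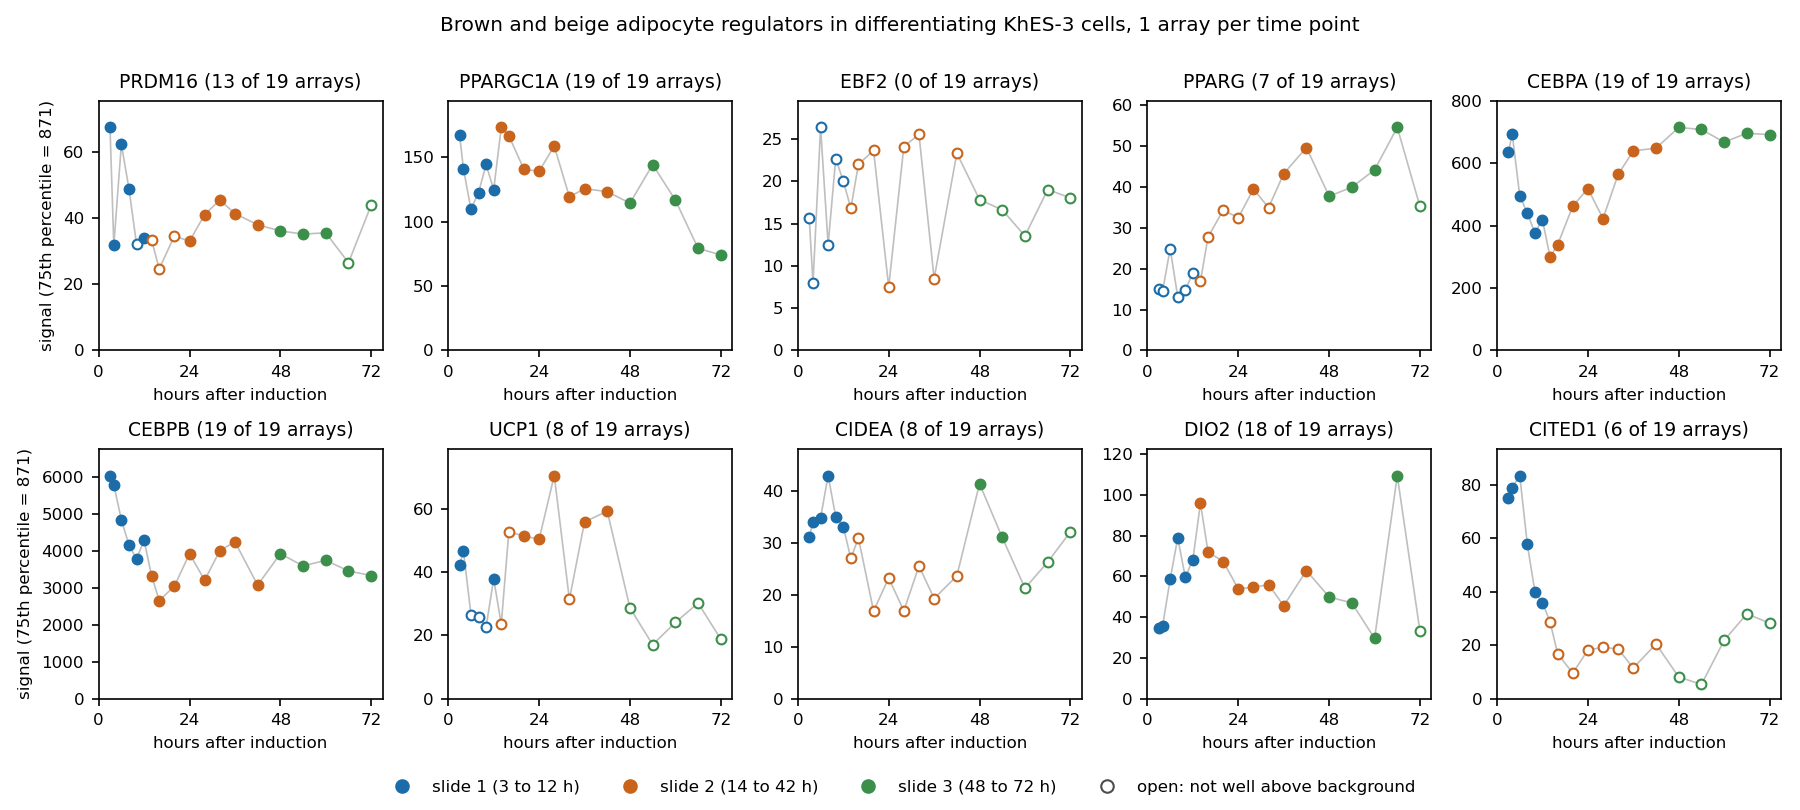
Signal of the 10 regulators (y axis, linear, scaled so that the 75th percentile of each array is 871) against hours after induction (x axis), by the brightest probe of each gene. Each point is 1 array, coloured by slide and open where the probe was not well above background. CEBPA dips and recovers, CEBPB falls and stays low, PPARG is detected on 7 arrays, all from 28 h on, CITED1 is detected from 3 to 12 h only, and EBF2 is never detected.

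Directions depend on how arrays are brought to one scale. Folds and changes below set the mean of the arrays at 60, 66 and 72 h against that of the arrays at 3, 4 and 6 h. No fold was tested, and an adjusted p beside a fold is that of the slope over all 19 arrays. Over all probes the median of this change was 0.13 (log2) under the 75th percentile, -0.24 under the array median and -0.52 under the level of spike-in RNA, control transcripts put into each sample. Under the array median 14.6% of probes rose and 34.6% fell, and under the spike-in RNA 4.62% and 34.8%. PPARGC1A was called as falling under each of these 3 scalings, as was CITED1, and PPARG as rising. The rise of CEBPA passed the test under the first alone. With the slide as a block, so that only changes within slides count, 9.18% of probes were called, and PPARGC1A was the one gene of the 10 whose slope was.

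**Figure D2:**
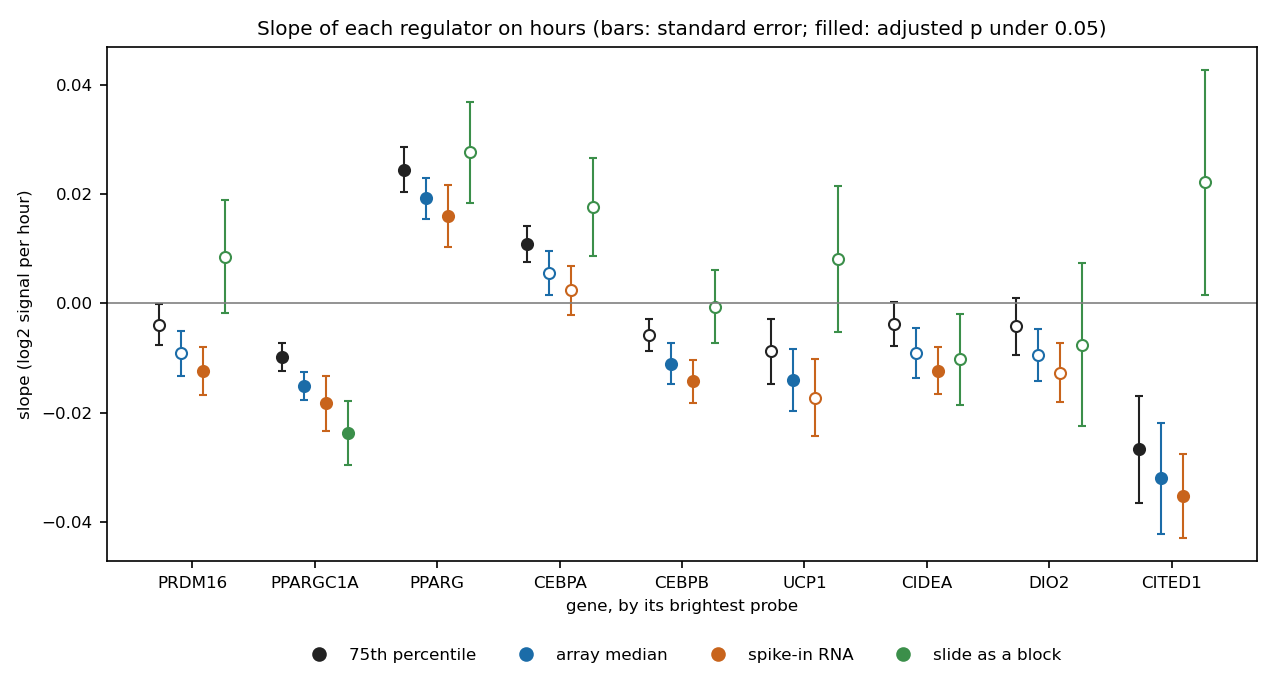
Slope of log2 signal per hour (y axis) for the 9 regulators tested (x axis), with standard errors as bars, under the 75th percentile, the array median, the spike-in RNA and, for the first of these, the slide as a block. Filled points have an adjusted p under 0.05. The slopes of PPARGC1A lie below 0 and filled in all 4 settings, PPARG is filled under the 3 scalings, and the block turns the sign for PRDM16, UCP1 and CITED1.

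PRDM16 is a zinc finger protein that directs precursors to brown and beige fat and away from muscle. A pair of its transcripts was measured by 1 probe each, and both probes were near the detection limit. The brighter probe (NM_199454) gave 67.3, 31.7, 62.3, 48.8, 32.1 and 34.1 from 3 to 12 h. Its signals at 14 to 42 h were 33.3, 24.6, 34.5, 33.0, 41.0, 45.4, 41.3 and 37.9, and those at 48 to 72 h were 36.1, 35.1, 35.5, 26.5 and 43.9. Apart from the 3 and 6 h arrays the gene thus stayed between 24.6 and 48.8, with no call at 10, 14, 16, 20, 66 or 72 h. The slope was -0.0039 log2 per hour (SE 0.0037, limma adjusted p = 0.389), and the test for any dependence on time gave an adjusted p of 0.393. With the spike-in RNA as the scale the slope was -0.0124 (adjusted p = 0.0293). The other probe (NM_022114) was well above background on 9 arrays, from 3 to 12 h and at 36, 42 and 60 h. It stood at 135.8 at 36 h and 89.1 at 8 h, whereas the brighter probe showed 41.3 and 48.8 at those hours. Its slope was not called either (-0.0119, SE 0.0109, adjusted p = 0.371).

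PPARGC1A (NM_013261) encodes the coactivator PGC-1alpha, which joins PPARG and nuclear respiratory factors to switch on mitochondrial genes and UCP1. On the first slide its signals were 167, 141, 109.5, 123, 144 and 125. The second slide gave 173, 167, 141, 139, 159, 119, 126 and 123, and the third gave 114, 144, 117, 79.3 and 74.1. The last 2 arrays were the lowest of the course, and the highest was that at 14 h. The early mean was 137 and the late mean 88.2, which was 1.56-fold lower. Its slope was -0.0099 log2 per hour (SE 0.0026, adjusted p = 0.0038). The fall kept its direction within each slide, with slopes of -0.0251, -0.0174 and -0.0353, none of which passed the test alone (adjusted p = 0.589, 0.0794 and 0.141; 4.65%, 6.55% and 1.04% of probes did). Taking the slide as a block gave -0.0237 (SE 0.0058, adjusted p = 0.0195). Leaving out the arrays with the highest detection limits, at 14, 16 and 72 h, moved the slope to -0.0063 (adjusted p = 0.0593). Without the 72 h array alone it was -0.00747 (adjusted p = 0.0326).

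EBF2 (NM_022659) opens chromatin for PPARG in brown fat precursors. Its probe read from 7.5 to 26.4 and was well above background on none of the 19 arrays. These readings carry no order, and no fold was computed. PRDM16 and EBF2 had no entry in the promoter table used below.

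PPARG is the nuclear receptor on which all fat cell formation depends. Its main probe (NM_138711) was printed 10 times on each array, so that it has an error within the array, which the other regulators but CEBPB lack. Over the first slide the means of these spots were 14.95, 14.5, 24.9, 13.1, 14.8 and 19.0, none of them well above background. The second slide gave 16.9, 27.7, 34.3, 32.5, 39.5, 35.0, 43.3 and 49.7, and the third gave 37.8, 40.0, 44.2, 54.6 and 35.2. The 7 arrays well above background were those at 28, 36, 42, 48, 54, 60 and 66 h. Readings on the other 12 arrays carry no order, and the lowest signals that passed at 14, 16 and 72 h (73.5, 53.7 and 52.4) were above every reading of this probe but that of 54.6 at 66 h, which the 14 h limit exceeded too. The 10 spots were all well above background at 28, 36, 42, 54 and 66 h, whereas at most 1 spot was on any array up to 20 h. At 3 h the spots had an SD of 8.12 around 14.95 and at 66 h one of 8.01 around 54.6, a gap larger than either SD, although the 3 h reading was not well above background. That spread is technical and says nothing of other cultures.

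The slope through all 19 readings, 12 of them not well above background, was 0.0244 log2 per hour (SE 0.0042, adjusted p = 7.9e-05). The probe passed the filter through 7 arrays from 28 to 66 h and none before, and the unmeasured early readings enter this p, so it is no independent test of a rise. In the deposited table, which holds only the readings well above background, it was 0.0069 (adjusted p = 0.389). No fold is given for this probe, since the 3 earliest arrays and that at 72 h were not well above background. Between 14 and 42 h, within the second slide, the slope was 0.0414 (SE 0.0091, adjusted p = 0.0395), where 6.55% of probes were called. Only its readings at 28, 36 and 42 h were well above background there, so this p is no independent test of a rise either. Within the third slide the slope was 0.0042 (adjusted p = 0.851). As a block, the slide moved the slope to 0.0276 (adjusted p = 0.0697). The test for any dependence on time with that block gave an adjusted p of 0.0408. Both fits include the 12 readings not well above background, so neither is an independent test of a change. A second probe for the same transcript, printed once, did not follow. It read 178 at 3 h and no more than 41.1 on any later array, was well above background at 3, 6, 32, 48 and 60 h, and had a slope of -0.0071 (SE 0.0082, adjusted p = 0.481). Without the 3 h array its slope was 0.0015 (adjusted p = 0.837). The mean of both probes gave a slope of 0.0087 (adjusted p = 0.125), so the call for PPARG rests on the probe with 10 spots and on readings below its detection limit.

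**Figure D3:**
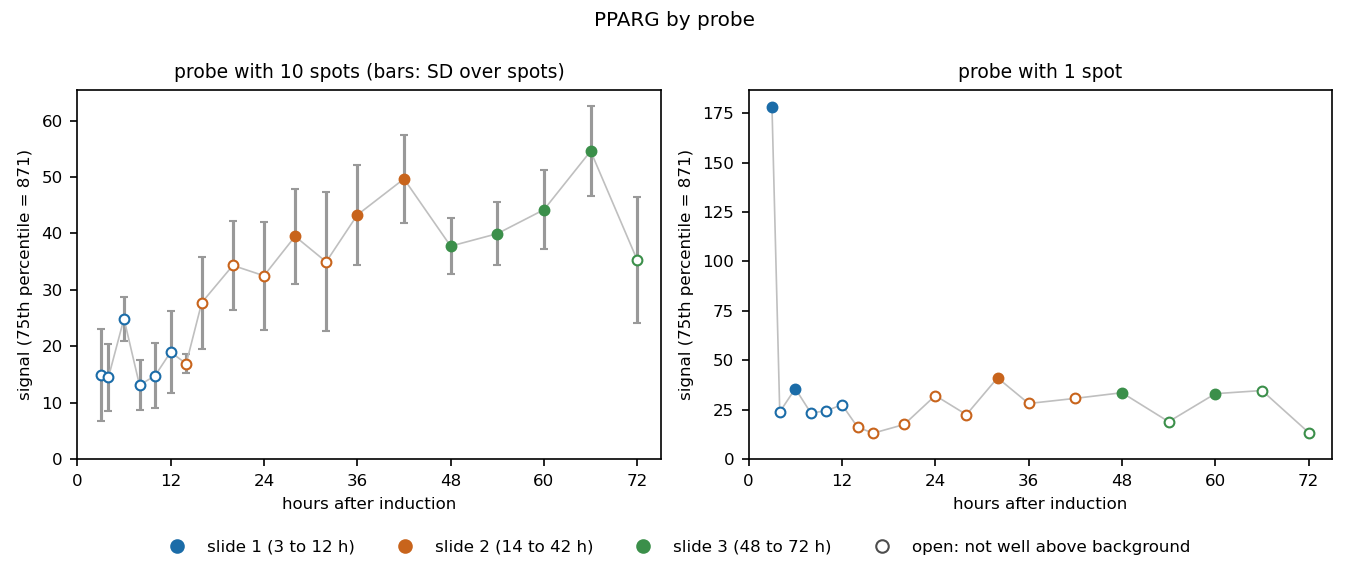
PPARG signal (y axis, 75th percentile at 871) against hours after induction (x axis) for the probe with 10 spots, as the mean and SD over spots, and for the probe with 1 spot. Colours are slides and open points were not well above background. The left panel reads 14.95 at 3 h (open), 54.6 at 66 h and 35.2 at 72 h (open), while the right panel has 1 high reading at 3 h, 178, and no trend after it.

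CEBPA and CEBPB are leucine zipper factors that act in sequence in textbook adipogenesis, CEBPB first and CEBPA later together with PPARG. CEBPB is also induced by cAMP and binds the genes of PPARGC1A and UCP1. CEBPB (NM_005194) was measured by 10 spots with a median coefficient of variation of 2.78%, and 189 of 189 spots were well above background, whereas for PPARG these values were 23.1% and 81 of 183. The CEBPB signals were 6049.9, 5799, 4851, 4167, 3791 and 4296 from 3 to 12 h. They were then 3323, 2661, 3049, 3931, 3211, 4012, 4254 and 3080.3 up to 42 h, and 3929, 3601, 3749.9, 3462 and 3338 from 48 h. The drop was early, from 3 to 16 h, and no later array returned to the level at 3, 4 or 6 h. The mean on the 3 latest arrays was 1.58-fold lower than on the 3 earliest. A straight line described this poorly (slope -0.0058, SE 0.0029, adjusted p = 0.0996), but the test for any dependence on time passed (adjusted p = 0.0021). With log2 hours in place of hours the slope was called as a fall (adjusted p = 0.0071), as it was with the array median (0.0185) and the spike-in RNA (0.006). With the slide as a block the test for any dependence on time did not pass (adjusted p = 0.242).

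CEBPA (NM_004364) dipped and came back. The first slide gave 636, 695, 496, 440.5, 377.5 and 419. The lowest value of the course, 299.6, was that at 14 h, followed by 339, 463, 519, 423, 565, 640.0 and 649 up to 42 h, and the third slide held 715, 709, 668, 697 and 692. All 5 arrays of the third slide were thus higher than every array from 6 to 42 h. The slope over all arrays was 0.0108 (SE 0.0034, adjusted p = 0.0109), but the latest 3 arrays were only 1.14-fold higher than the earliest 3, and with log2 hours in place of hours the rise was not called (adjusted p = 0.141). Within the second slide the rise had a slope of 0.0377 (SE 0.007, adjusted p = 0.0264). Within the first slide the slope was -0.0899 (SE 0.0201, adjusted p = 0.0648), in a comparison where 4.65% of probes were called. The test for any dependence on time gave an adjusted p of 0.0004, and 0.0175 in the fit that blocks by slide, where 31.6% of probes were called. Under the array median the slope was 0.0056 (adjusted p = 0.269) and with the spike-in RNA 0.0024 (adjusted p = 0.724).

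The change of one C/EBP gene relative to the other within each array is the same under any scaling by 1 factor per array. Taken from the 3 h array on the log2 scale, CEBPA stood at -0.36 and CEBPB at -0.32 at 6 h, and at -0.60 and -0.49 at 12 h. They were at -0.91 and -1.19 at 16 h, then at -0.29 and -0.62 at 24 h, and by 42 h they had reached 0.03 and -0.97. At 4 h CEBPA was at 0.13 and CEBPB at -0.06, and from 6 to 14 h both were below their start on every array. Neither slope within the first slide passed the test (adjusted p = 0.0648 for CEBPA and 0.0829 for CEBPB). From 16 h on CEBPA was on every array the higher relative to its own start. The gap was 0.28 at 16 h, went up to 0.53 by 20 h, was back at 0.33 on the arrays at 24 and 28 h, peaked at 1.00 at 42 h and then lay between 0.76 and 0.98. It was no larger than 0.22 in either direction from 4 to 14 h. No test of this gap was made.

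**Figure D4:**
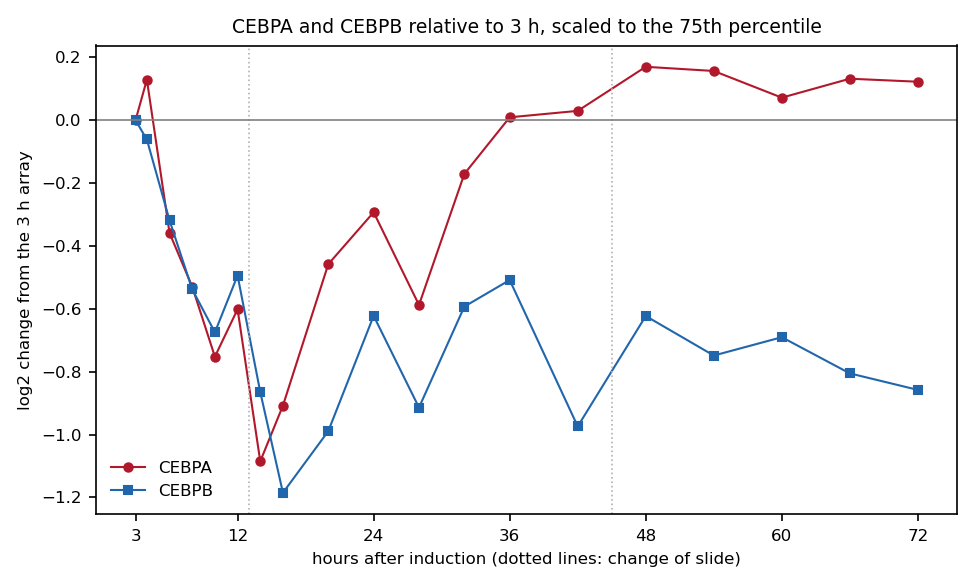
Log2 change of CEBPA and CEBPB from the 3 h array (y axis) against hours after induction (x axis), 1 array per point, with dotted lines where the slide changes. The curves lie within 0.22 of each other to 14 h and then part, with CEBPA at 0.12 and CEBPB at -0.86 at 72 h.

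The start of the CEBPA gene is shown here for its TATA box, since the promoter window of CEBPB carries the same letters 29 bases before a start. The RefSeq table of promoters (GRCh38.p14) gives, for each annotated start, 250 bases before and 50 after it. It held 18 windows for 8 of the 10 genes. Capitals mark TATAAA, which begins 30 bases before the start of CEBPA at the right end of this stretch of the minus strand, chr19:33302535-33302594, just upstream of the gene:
CEBPA: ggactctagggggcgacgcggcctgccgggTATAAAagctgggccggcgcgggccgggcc
TATAAA, searched on both strands, was found in 8 of the 18 windows and in 11.5% of all 35116 windows in the table. The 8 come from 5 genes, CEBPA, CEBPB, CITED1, DIO2 and PPARG, with 3 from CITED1 and 2 from PPARG that overlap and hold the same site. A match is a description of the letters and not of a working site.

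UCP1 (NM_021833), the proton channel that defines thermogenic fat, was near the detection limit throughout. It read 42.1, 46.7, 26.5, 25.9, 22.7 and 37.8 on the first slide. The second slide gave 23.5, 52.6, 51.4, 50.3, 70.5, 31.3, 55.8 and 59.3, and the third gave 28.7, 17.04, 24.0, 30.2 and 18.8. The 8 arrays well above background were those at 3, 4, 12, 20, 24, 28, 36 and 42 h, and none was from 48 h on. The highest reading, 70.5 at 28 h, was above every reading on the third slide. The slope was not called (-0.0088, SE 0.006, adjusted p = 0.223), and it was 0.0081 (adjusted p = 0.75) with the slide as a block. Scaled to the array median the slope was called as a fall (adjusted p = 0.045), and with the spike-in RNA it was not (0.0588). The probe passed the filter through 8 arrays from 3 to 42 h and none after. The unmeasured later readings enter these fits, so neither p is an independent test of a fall. The lower readings from 48 h on, none well above background, begin where the slide and the day of the scan change. The part of slide and scan in them cannot be told apart from time.

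CIDEA (NM_001279), a lipid droplet protein of brown and beige fat, was well above background from 3 to 12 h and again at 48 and 54 h. Its readings ran from 16.9 at 20 h to 43.0 at 8 h, with 41.4 at 48 h. The first slide held 31.1, 34.0, 34.9, 43.0, 35.1 and 33.1. None of the 8 arrays from 14 to 42 h was well above background. At 14, 16 and 20 h the lowest signal that could be called, 73.5, 53.7 and 37.7, was above every reading of those 8 arrays. Neither its slope (-0.0038, SE 0.0041, adjusted p = 0.441) nor the test for any dependence on time (adjusted p = 0.0629) passed. With the spike-in RNA the slope was called as a fall (-0.0123, adjusted p = 0.0272).

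DIO2 (NM_013989) makes the active thyroid hormone T3 inside brown fat and is a classic target of cAMP. Its signals on the first slide were 34.5, 35.8, 58.6, 79.1, 59.6 and 68.3. They went on at 96.1, 72.1, 67.4, 53.9, 54.8, 56.0, 45.6 and 62.9 on the second slide and at 49.9, 47.0, 29.6, 109.6 and 33.0 on the third. The highest reading was that at 66 h, between neighbours of 29.6 and 33.0, the latter not well above background, and the next highest was that at 14 h. The slope over the course was -0.0042 (SE 0.0052, adjusted p = 0.508), and the test for any dependence on time did not pass (adjusted p = 0.314). Within the first slide it was 0.114 (SE 0.0359, adjusted p = 0.129). Without the arrays at 14, 16 and 72 h the slope over the course was 0.0017 (adjusted p = 0.814). A second probe for the same transcript was well above background at 36 h (80.0) and 66 h (43.3) only and was not tested. At 66 h both probes were thus detected and high for their own series.

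The DIO2 promoter is shown because it was the one regulator's window with the full cAMP response element, TGACGTCA, which 1.85% of all windows hold. This stretch, chr14:80212179-80212298 on the minus strand, ends at a start of DIO2 and lies inside the annotated span of the gene, since a longer transcript model begins further upstream. Capitals mark in turn the cAMP response element, 96 bases before the start, the pattern TTGCNNCAA (here TTGCAGCAA) 54 bases before it, and TATAAA:
DIO2: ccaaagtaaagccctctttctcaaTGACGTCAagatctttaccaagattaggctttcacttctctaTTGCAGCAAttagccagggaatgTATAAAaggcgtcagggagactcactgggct
The pattern TTGCNNCAA, searched as C/EBP-like and not shown to be a C/EBP site, was in windows of DIO2 and CITED1 and in 1.98% of all windows. The shorter core of the cAMP response element, TGACG, which the full element contains, was in windows of CEBPB, CITED1, DIO2 and PPARGC1A and in 24.6% of all windows. The PPAR response element, the letters AGGTCA repeated with 1 free base between, was in none of the 18 windows and in 0.0228% of all. All motifs were searched on both strands.

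CITED1 (NM_004143), a transcriptional coregulator used as a beige marker, fell within the first slide. Its signals there were 74.8, 78.9, 83.3, 57.6, 40.0 and 35.8, with a slope of -0.139 log2 per hour (SE 0.0256, adjusted p = 0.0462). On the 13 later arrays it read from 5.29 to 31.7 and was not well above background. The latest 3 arrays were at least 2.30-fold lower than the earliest 3. The probe passed the detection filter through the 6 arrays of the first slide alone, where it is high, so the straight slope over all arrays (-0.0267, SE 0.0098, adjusted p = 0.0271) is no independent test of a fall. Its call was lost without the array at 3, 4, 6 or 54 h (adjusted p from 0.0567 to 0.0633). The slide as a block gave a straight slope of 0.0221 (adjusted p = 0.539). The test for any dependence on time with that block gave an adjusted p of 0.0118. It includes the 13 later readings, which were not well above background, and is no independent test either. Its most upstream start, at the right end of chrX:72307158-72307217 on the minus strand, just upstream of the gene, has TATAAA 29 bases before it, close to its place in CEBPA, and is shown for that:
CITED1: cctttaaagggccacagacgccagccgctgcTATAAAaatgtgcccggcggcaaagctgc

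The genes that the regulators work with moved in both directions. Of 34 transcriptional partners and opponents, 31 were tested, 6 rose, 9 fell and 16 were not called, with a median slope of -0.0033 beside -0.0002 over the 16693 genes tested. Among all those genes 24.6% rose and 29.8% fell. The steepest rises, by slope, were those of DDIT3, a C/EBP family member that blocks CEBPA and CEBPB from binding DNA (2.18-fold from the early to the late arrays, adjusted p = 0.0026), ZNF516, a PRDM16 partner that activates UCP1 (1.67-fold, adjusted p = 5.3e-05), and PPARA (slope 0.0148, adjusted p = 0.0137). For PPARA the late arrays were only 1.18-fold above the early ones. The steepest falls, by slope, were those of IRF4, which works with PPARGC1A in thermogenesis (slope -0.0212, adjusted p = 0.008, well above background on 14 arrays), TFAM, the activator of mitochondrial DNA transcription (1.90-fold, adjusted p = 5.7e-06), and ZNF423, which holds fat cells in a white state (1.504-fold, adjusted p = 0.0003). EHMT1, the methyltransferase bound to PRDM16, fell as well (1.40-fold, adjusted p = 0.0054). Of the 3 rises named, those of DDIT3 and ZNF516 were called with the array median too, and none with the spike-in RNA, whereas the falls named here passed under both. With the slide as a block 0 of the list rose and 1 fell, beside 688 and 996 of all 16693 genes tested. None of the genes named here was called with that block (adjusted p from 0.068 to 0.601).

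Thermogenic and mitochondrial fuel genes split in a like way. Of the 24 tested, 5 rose, 9 fell and 10 were not called (median slope -0.0033), near the 24.6% and 29.8% of all genes that rose and fell. PDK4, a kinase that holds back glucose oxidation, rose 1.56-fold (adjusted p = 0.0097), GK, which recycles glycerol, 1.62-fold (adjusted p = 0.0008), and LETMD1, a mitochondrial protein needed for brown fat heat, 1.56-fold (adjusted p = 3.5e-05). The spike-in RNA as the scale left no rise in this list. The mitochondrial creatine kinase CKMT2 fell with a slope of -0.0228 (adjusted p = 0.0002), which was -0.0142 without the arrays at 14, 16 and 72 h (adjusted p = 0.0014), and its reading at 72 h, 13.2, lay under the lowest signal called there. GPD2, of the glycerol phosphate shuttle, fell 2.09-fold (adjusted p = 0.0005) and CIDEB, a relative of CIDEA, 2.14-fold (adjusted p = 8.9e-06). These 3 falls passed with both other scalings. With the slide as a block 0 genes of the list rose and 1 fell. The UCP1 relatives UCP2 and UCP3 were well above background on all 19 arrays and neither slope was called (adjusted p = 0.0591 and 0.165). The slope of UCP2 was called as a fall with the array median and the spike-in RNA (adjusted p = 0.0033 and 0.0126). That of UCP3 was called as a rise with log2 hours (adjusted p = 0.0406). The test for any dependence on time passed for both (adjusted p = 0.0496 and 0.0034).

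The adrenergic and cAMP pathway was measurable throughout. All 14 of its genes were tested, 12 of them well above background on every array, and 3 rose, 4 fell and 7 were not called (median slope -0.0014), near the 24.6% and 29.8% of all genes that rose and fell. ADRB3, the beta-adrenergic receptor typical of fat cells, rose 1.496-fold (adjusted p = 0.0084), with signals between 58.5 and 146. The kinase gene MAPK14 rose 1.34-fold (adjusted p = 0.0002) and its target ATF2 1.35-fold (adjusted p = 0.0265). These 3 rises were not called with either other scaling. PDE3B, which breaks down cAMP, fell 2.32-fold (adjusted p = 1.7e-06), PRKAR2B, a regulatory subunit of protein kinase A, 1.53-fold (adjusted p = 0.0006), and GNAS, the stimulatory G protein subunit, 1.46-fold (adjusted p = 6.4e-06). The falls of PDE3B and GNAS were called with the slide as a block as well (adjusted p = 0.016 and 0.0268). Around DIO2, the thyroid hormone transporter SLC16A10 fell 2.07-fold (adjusted p = 1.2e-07, and 0.0075 with the slide as a block) and the receptor THRB rose 2.14-fold (adjusted p = 0.0089), a call lost under the array median and the spike-in RNA (adjusted p = 0.0647 and 0.418).

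Adipocyte genes held rises and no falls under the 75th percentile. Of 13 tested, 4 rose, near the 24.6% over all genes, 0 fell, beside 29.8% of all genes, and 9 were not called (median slope 0.0063). The insulin-responsive glucose transporter SLC2A4 rose 1.68-fold (adjusted p = 0.0005), CFD, the adipokine adipsin, 1.76-fold (adjusted p = 0.0048) and DGAT1, which completes triglycerides, 1.37-fold (adjusted p = 0.0087). CFD alone was called with the slide as a block (adjusted p = 0.0132), and SLC2A4 alone with the array median (adjusted p = 0.0109). With that scaling, under which 1771 of all 16693 genes tested rose and 7426 fell, 1 gene of the list rose and 2 fell. With the spike-in RNA, under which 599 of all those genes rose and 7435 fell, 0 of the list rose and 2 fell. LPL, the lipase of the fat cell surface, was well above background on 18 arrays with no call (adjusted p = 0.398).

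Markers that set brown or beige cells apart from white ones ranged from undetected to always detected. Of 19 such genes, 7 were well above background on all arrays, ZIC1, TMEM26, TNFRSF9, HOXC8, HOXC9, TBX15 and SLC36A2 were on none, and 10 were tested. SHOX2 (slope 0.016, adjusted p = 0.0342, and up to 0.0879 without 1 array), which was well above background on 11 arrays, and CD40 (1.38-fold, adjusted p = 0.0019) rose, none fell and 8 were not called, beside 24.6% of all genes rising and 29.8% falling. Neither rise was called with the array median or the spike-in RNA. TBX1, a beige marker, was well above background on all 19 arrays, between 519.9 and 1912, with no slope over the course (adjusted p = 0.907) but a called one with the slide as a block (adjusted p = 0.0372). Among signals that induce or restrain brown fat, 8 of 12 genes were tested, 1 rose, 3 fell and 4 were not called, beside the same 24.6% and 29.8% of all genes. NPPB, a natriuretic peptide, fell 4.53-fold (adjusted p = 1.8e-06), FNDC5, the precursor of irisin, 1.99-fold (adjusted p = 6.4e-05), and BMP7, an inducer of brown fat, 1.42-fold (adjusted p = 0.0002). DLK1, which restrains adipogenesis, rose 1.29-fold (adjusted p = 0.0403), a call lost with both other scalings. No gene of this list of signals was called with the slide as a block.

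**Figure D5:**
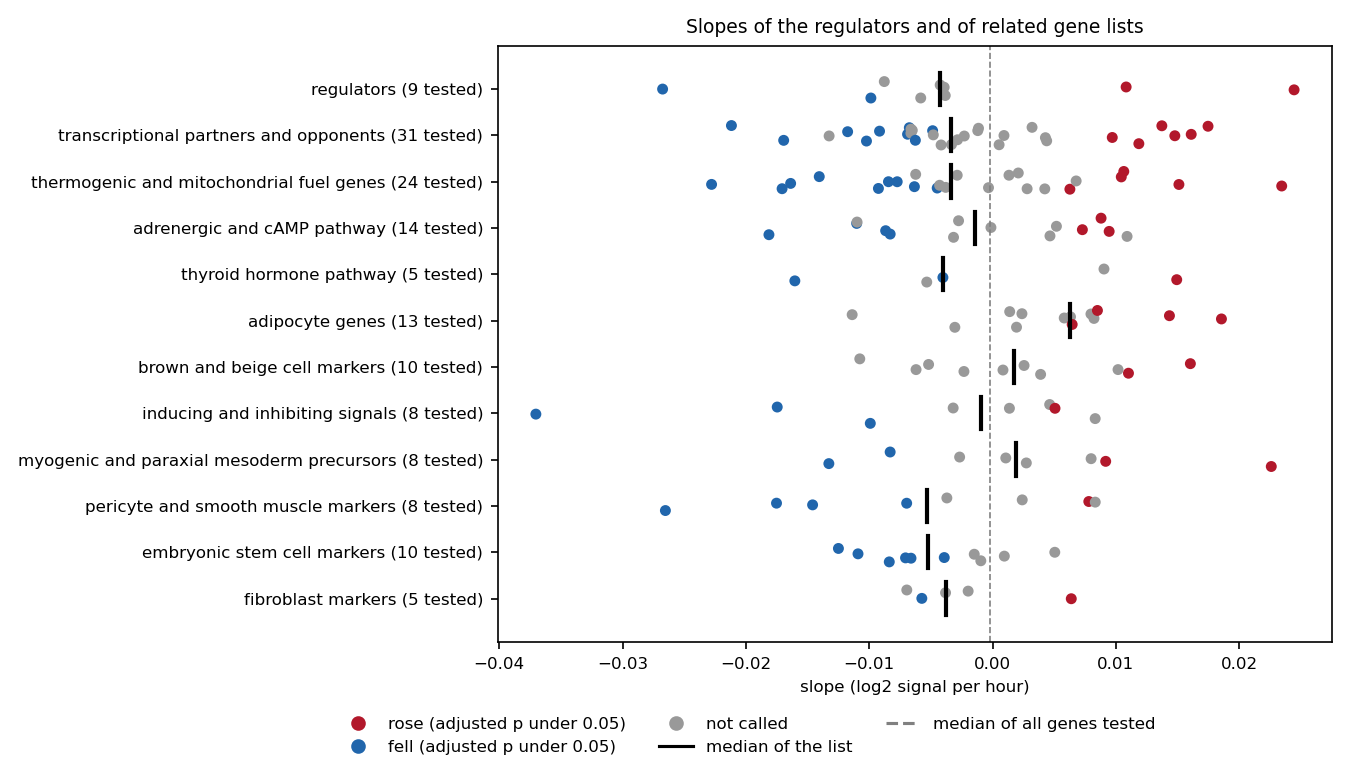
Slope of log2 signal per hour (x axis) for each tested gene of the regulators and of 11 related lists (y axis), with points spread vertically for legibility. Red points rose and blue points fell at an adjusted p under 0.05, grey points were not called, black bars are list medians and the dashed line is the median of all 16693 genes tested. Most lists hold points on both sides of the dashed line, the adipocyte genes have 4 red points and no blue one, and the hESC markers have 6 blue points and no red one. The red point of the thermogenic list at the far right is ELOVL3, a fatty acid elongase well above background on 8 arrays, singled out here after its value was seen.

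Brown fat shares a precursor with muscle, and beige cells can arise near vessels, so markers of both were followed. MYF5, which marks the brown fat and muscle precursor, was well above background on 1 array. Of 8 myogenic and paraxial mesoderm genes tested, TBX6 (2.51-fold, adjusted p = 0.001) and MYOG (1.53-fold, adjusted p = 0.0429) rose, TCF15 (2.03-fold, adjusted p = 0.0022) and EYA1 (1.25-fold, adjusted p = 0.0296) fell, and 4 were not called, again beside 24.6% of all genes rising and 29.8% falling. The TBX6 rise was called with the array median (adjusted p = 0.0081) but not with the spike-in RNA (0.0613), and that of MYOG with neither. With the slide as a block no myogenic or paraxial mesoderm gene was called. Pericyte and smooth muscle markers summed to 16184 at 3 h and 7120 at 72 h, with TAGLN the most abundant. Of the 8 tested, 4 fell, beside 29.8% of all genes, among them TAGLN (2.81-fold, adjusted p = 1.1e-09) and ACTA2 (2.16-fold, adjusted p = 2.9e-08), both also called with the slide as a block, and PDGFRB (slope -0.0146, adjusted p = 0.0007). CSPG4 rose (1.56-fold, adjusted p = 0.017), but not with the array median or the spike-in RNA.

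Other cell types could move with these values, and their markers are given beside them. The summed signal of the 10 fibroblast markers was 55982 at 3 h, 37515 at 36 h, its lowest, and 60872 at 72 h, its highest. THY1, which hESCs also carry, was the most abundant. COL6A3 and FAP were well above background on 0 arrays, COL3A1 and LUM on 1 each and DCN on 9, while COL1A1 and COL1A2 were on all 19. COL1A2 rose 1.29-fold (adjusted p = 0.0002), a call lost under the array median and the spike-in RNA (adjusted p = 0.607 and 0.67), and FBLN1 fell 1.23-fold (adjusted p = 0.0455). Among the hESC markers 6 of 10 fell and none rose, beside 29.8% and 24.6% of all genes, the steepest falls by slope being those of DNMT3B (1.79-fold, adjusted p = 1.8e-06), ZFP42 (1.78-fold, adjusted p = 8.2e-05) and L1TD1 (1.52-fold, adjusted p = 0.0114). The part of these cells in the changes of the 10 regulators was not tested.

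For the regulators well above background on at least 10 arrays, the genes with the most similar course were sought among 13967 genes detected on every array, by Pearson's r of log2 signal over the 19 arrays. These arrays share slides and scaling, so r is given as a description only. CEBPA was most like IFT140 (r = 0.933), TMEM200B (0.932) and GLS2 (0.931). CEBPB was most like IL11 (0.907), MGAT3 (0.891) and KCTD12 (0.890), and PPARGC1A like CCNH (0.883), DHRS11 (0.877) and PSMF1 (0.873). DIO2 had lower likeness, to KIAA1217 (0.794), EPN3 (0.776) and CHCHD2 (0.775), and PRDM16 the lowest, to TSPAN13 (0.668), CSPG5 (0.656) and DCAF13 (0.643).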

How the data were processed

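RNA from 19 KhES-3 samples, 1 per time point, was labelled with Cy3 and hybridized to one-colour Agilent arrays. The authors deposited Agilent Feature Extraction 10.10.1.1 output, in which each spot's processed signal is an intensity with background subtracted and no scaling between arrays, and a table of the same intensities times 1 factor per array (0.905 to 1.38), blank where a spot was not well above background. Of 61657 spots that are not controls, 0.632% were flagged over all arrays and left out, and none was saturated. Copies of one probe were averaged and divided by the 75th percentile of their array before log2 was taken. Probes were named through RefSeq accessions (GRCh38.p14 table), 28174 of 50683 in all. A gene is its brightest probe. A probe with several spots was well above background where most of them were.

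Slopes on hours and the cubic test used limma 3.58.1 (R 4.3.3) with Benjamini-Hochberg adjustment over 32111 probes, tested first on simulated data. Folds compare the means of log2 signal at 60, 66 and 72 h and at 3, 4 and 6 h, with the array's lowest signal well above background as the floor for bounds. From each list, up to 3 rising and 3 falling genes past the test and detected on 10 or more arrays were named, besides defining markers. A gene that this rule names is not reported here. Alternatives were other scalings, normexp (offset 50) with quantile normalization, other detection filters, log2 hours, the slide as a block or alone, the deposited table, other probe rules and each array left out. Normexp used the median pixel signal. The members and lists were chosen with earlier results of these data known. Precision is limited by how few arrays there are, and nothing says how far cultures would differ.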

Additional observations from a re-analysis of the deposited data

How the results depend on the processing

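No paired analysis was possible because each hour was sampled once. The 2 rising regulators became 1 with the array median, the spike-in RNA, log2 hours, the deposited table, the mean of all probes and the filter for all 19 arrays, and 0 with the slide as a block and on slides 1 and 3 alone. The 2 falling ones became 4 with the array median, 5 with the spike-in RNA, 1 with that filter, the block and slide 1 alone, and 0 on slides 2 and 3 alone. The 4 include UCP1, which was not well above background from 48 h on, so its place there supports nothing. Over all probes, 9926 rising became 4678 (array median), 1485 (spike-in), 1513 (block), 722, 1314 and 113 (slides 1, 2 and 3 alone), and 7207 falling became 11117, 11187, 1434, 771, 788 and 222. Any dependence on time was called for 9 regulators with the spike-in RNA, 3 with the filter for 19 arrays and, over all probes, 10153 with the block in place of 24659. Leaving out each array in turn kept 2 rising regulators and gave 1 to 3 falling, the 1 without the 3, 4, 6 or 54 h array (CITED1 lost), and CEBPB was called as falling without the 16 h array (adjusted p = 0.0336). Regulators counted as at least 2-fold apart numbered 2 (CITED1 and PPARG), and 4 with the spike-in RNA, 0 with normexp and quantile, and 1 as 72 h over 3 h. PPARG entered the count of 2 through early and 72 h readings that were not well above background. It has no measured fold, and its place in that count supports nothing.

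Slopes turned sign as follows, none of them called. With the slide as a block they were 0.0081 for UCP1, 0.0221 for CITED1, 0.0086 and 0.0437 for the brighter and dimmer probe of PRDM16 and 0.0069 for the single-spot probe of PPARG, which ran from -0.0103 to 0.0015 over the fits without 1 array, the latter without 3 h. Slide 1 alone gave 0.114 for DIO2, 0.0118 for CIDEA, -0.0899 for CEBPA and 0.0161 for the dimmer PRDM16 probe. Slide 2 alone gave 0.0219 for UCP1, 0.0099 for CEBPB, 0.0193 and 0.0732 for PRDM16 and 0.0441 for the single-spot PPARG probe. Slide 3 alone gave -0.00199 for CEBPA, 0.103 for CITED1, 0.0026 for PRDM16 and 0.00048 for DIO2. UCP1 had 0.013 in the deposited table, and DIO2 0.0017 without the 14, 16 and 72 h arrays. The slope of PPARG was 0.0069 (adjusted p = 0.389) in the deposited table, which holds only its values well above background. Of the other slope values, 295 kept direction and call, 18 lost the call and 8 gained it. The cause of these changes was not tested. The fits without 14, 16 and 72 h were added after the data were seen. Probes under a signal of about 25.6 could not be measured on the median array.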
